A study of Danio rerio with 4 samples.

Results

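The regions described are the intervals of chromosome 7 in a table of ATAC-seq read counts from zebrafish (Danio rerio) heart cells, taken in their order along the chromosome. All intervals that the table places on chromosome 7 were kept, which gave 3210 of the 54036 intervals of the whole file. A window was set by interval starts from 3 to 6 Mb and held 423 intervals, against 2787 on the rest of the chromosome. The window was proposed because intervals there stood out in density, direction and size of change in these same libraries. Its values are therefore given as a description, without a p-value.

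ATAC-seq maps open chromatin with the Tn5 transposase, an enzyme that inserts sequencing adapters where DNA is not covered by nucleosomes. Reads gather over promoters, enhancers and other open regions, and thin out over closed chromatin. An interval is a stretch in which the authors counted reads, after calling peaks. Not every interval need be open chromatin, since widths over the whole file ran from 1 to 814904 bp and 1609 intervals held no read. Read density is the number of reads per library, averaged over the libraries, that an interval holds per kb of its length.

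The input was noncardiomyocytes (nonCMs, all heart cells other than heart muscle cells) of adult hearts at 7 days, and the labels name the injury area as their origin. WT and Treatment, the titles of the groups, each had 2 libraries, and no source used here says whether they came from separate animals, so p-values measure only the spread between these libraries. The labels give wild type as the genotype of both groups and add amputation for Treatment. The text of the study instead describes tnfα mutant and wild-type hearts, both after amputation, so the label names are kept and the direction of every difference is given as Treatment relative to the library group titled WT. The cell type was not checked against marker genes, and no interval is placed in a gene, exon or intron, because no gene positions on the build of the files (GRCz11) were used here.

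Reads in intervals summed to between 14736856 and 16822284 per library, and chromosome 7 took between 1197518 and 1372434 of them. Chromosome 7 held 8.04% to 8.16% of the reads of each library, the highest share of the 25 chromosomes; the others held 2.17% to 7.61%. It had 43.3 intervals per Mb, within the range of 29.4 to 69.4 on the other 24 chromosomes. A tested interval is one that passed the filter on low counts, and 2996 of the 3210 intervals did so. The 214 that did not pass had a median of 2 reads over the libraries, at most 20 in any library, and 72 of them had no read at all. An interval was called where the edgeR quasi-likelihood test gave a Benjamini-Hochberg adjusted p under 0.05 over all 50494 tested intervals of the file.

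Reads were not spread evenly along the chromosome. The bins of 50 kb had a median of 595 reads per library on chromosome 7 and of 544 over the genome. A single block from 5550001 to 6500000 on chromosome 7 (950 kb) reached 27000 reads per bin and library, which is 49.7 times the genome-wide median. The block held 39.7% and 40.2% of the chromosome's reads in the WT libraries, and 39.2% and 38.6% in the Treatment libraries. Read density in the megabases outside 3 to 7 Mb ranged from 4.72 to 29.0 reads per kb. It was 15.6 to 27.3 from 20 to 42 Mb and 11 to 17.1 from 57 to 68 Mb.

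**Figure D1:**
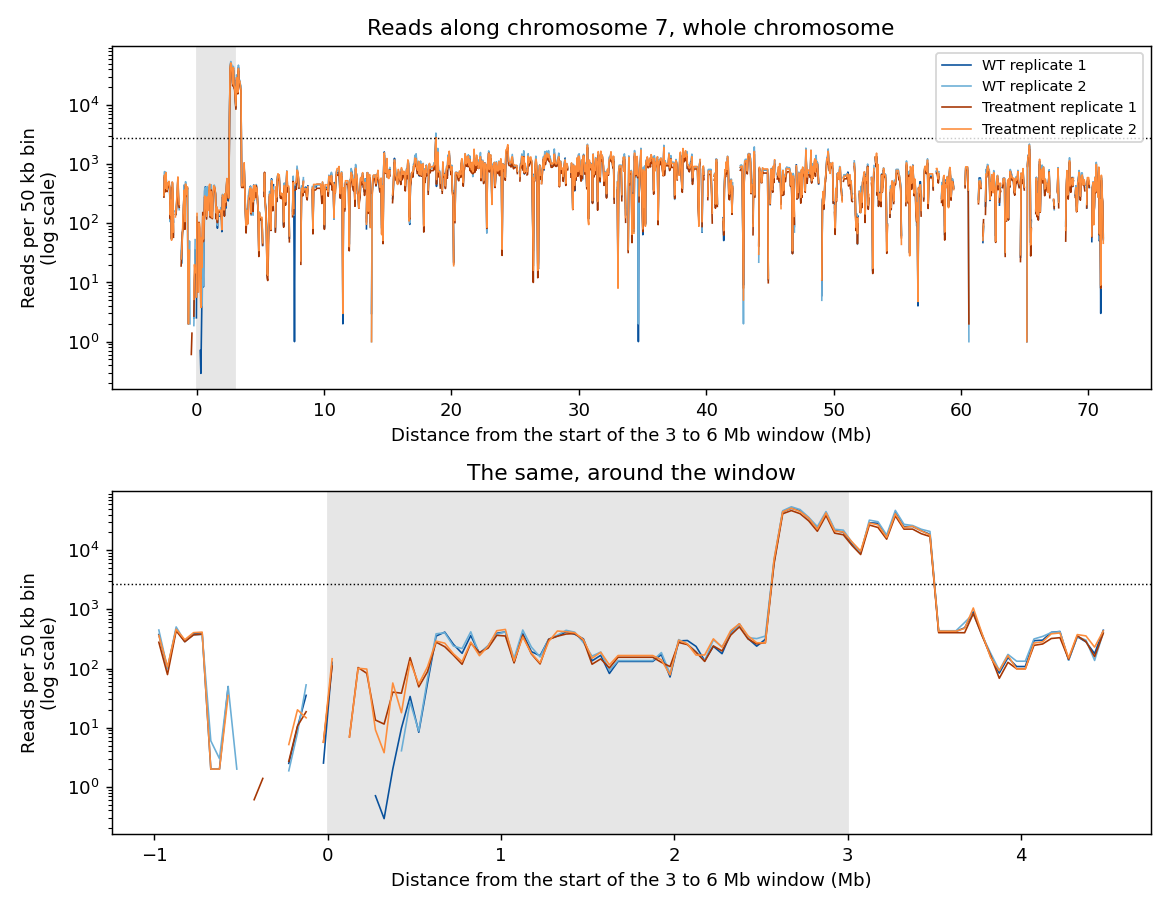
Reads per 50-kb bin in each of the 4 libraries (log axis) against the distance in Mb from the start of the window, for the whole of chromosome 7 (above) and around the window (below); grey marks the window, the dotted line 5 times the genome-wide median bin, and bins without reads leave a gap. The dense block stands above the line in every library, and the libraries lie close together over most of the chromosome. Near the start of the window the WT lines drop below the Treatment lines, and in the bins soon after this drop they lie above them. In the sparse bins just before the window the WT lines lie above the Treatment lines in some bins and below them in others.

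A dense block was defined, after the data were seen, as at least 5 neighbouring bins of 50 kb with over 5 times the genome-wide median. By this definition 12 blocks lay on 8 chromosomes, and the block of chromosome 7 was the densest of them. The other 11 blocks reached 15.9 to 30.2 times the median bin and were up to 2000 kb long. The window border at 6 Mb cut the block of chromosome 7, leaving 347 of its 738 intervals inside the window and 391 outside.

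The intervals of the block were short and packed. Their median width was 701 bp, against 3364 bp after the block, and they lay at 777 per Mb, against 34.2 per Mb after it. Of neighbouring pairs in the block, 88.6% touched end to end, against 42.6% on the rest of the chromosome. Where 3 intervals touched in a row, the middle one was either denser or sparser than both its neighbours in 645 of 645 such rows in the block and in 651 of 672 outside it. The median ratio of density between touching neighbours was 14.8 in the block and 8.68 outside. Thus, where intervals touched, dense and sparse ones took turns, with a larger step inside the block. How the borders between touching intervals were set is not given, and whether the pattern follows from it was not tested.

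Intervals with over 500 reads per kb numbered 197 in the block (26.7%) and held 88.7% of its reads. Outside the block there were 14 such intervals on chromosome 7 (0.566%). Of the 10 densest intervals of at most 5 kb, 8 lay in the block. The interval from 5862421 to 5862933 was the densest, at 19300 reads per kb, and held 10350 and 10625 reads in the WT libraries and 8683 and 9891 in the Treatment libraries. The interval from 5734797 to 5736117 held 20605 and 21868 reads in the WT libraries and 18922 and 20024 in the Treatment libraries. Neither was called, with log2 fold changes of -0.10 and -0.04 that turned to 0.01 and 0.07 with scaling on narrow intervals.

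**Figure D2:**
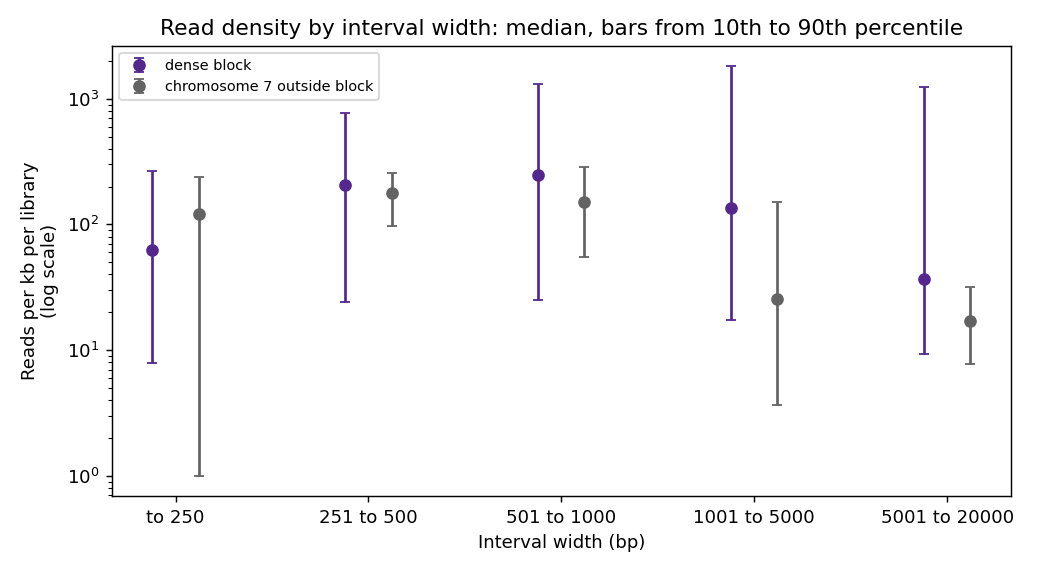
Read density (reads per kb and library, log axis) by interval width for the dense block and for the rest of chromosome 7, with the median as a point and the 10th to 90th percentile as a bar. In the class of 1 to 5 kb the median was 135 in the block and 25.3 outside; the lower end of the bar for the narrowest class outside the block is 0 and is cut off at 1.

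The window from 3 to 6 Mb therefore joined 2 unlike stretches, a sparse one up to the block and the first 0.45 Mb of the block itself. Over the whole window there were 141 intervals per Mb, against 39.2 on the rest of the chromosome. Its overall density was 150 reads per kb, against 22.5. From 3.6 Mb to the block, however, the density was 6.81 reads per kb with 31.3 intervals per Mb, and from 3.0 to 3.6 Mb it was 3.57 with 25 intervals per Mb. The high density of the window thus came from its part in the block, at 759 reads per kb.

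In direction and size, 40 intervals of chromosome 7 were called, 12 lower and 28 higher in Treatment. This is 1.34% of the tested intervals, where 1.16% were called over the whole file and 0.323% to 6.38% on the other 24 chromosomes. More intervals of the chromosome were called higher than lower, whereas over the file 0.721% were called lower and 0.438% higher. The number of lower calls rested on single libraries. It was 34 when WT replicate 1 was left out, 7 when WT replicate 2 was, and 4 when Treatment replicate 2 was; leaving out the last also brought the higher calls to 17. The DESeq2 Wald test called 3 lower and 16 higher among the 2996 tested intervals of chromosome 7, and 252 of the 50494 tested intervals of the file (0.499%). Of the 40 calls, 18 held whichever library was left out, as far as the interval still passed the filter, and 22 were lost for at least 1 library; the libraries concerned are named with each interval below. The split of 12 lower and 28 higher became 4 and 39 with scaling factors taken from intervals of at most 1 kb (which moved all intervals up by 0.11 on the log2 scale), 21 and 26 with factors from intervals of over 20 kb, and 19 and 26 with upper quartile scaling.

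Inside the window 6 intervals were called lower and 21 higher, 6.96% of the 388 tested. On the rest of the chromosome 6 were lower and 7 higher, 0.498% of 2608. The window was selected on this contrast, so its share beside that of the file (1.16%) is a description. Lower calls in the window numbered 13 if WT replicate 1 was dropped, 3 if WT replicate 2 was and 2 if Treatment replicate 2 was. On the rest, dropping WT replicate 1 gave 21 lower calls, and dropping Treatment replicate 2 gave 2 lower and 3 higher. Of the 71 megabases with intervals outside 3 to 7 Mb, 64 held no call and none held more than 2.

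The difference between window and rest was in the tails and not in the middle. Log2 fold changes had a median of 0.00 in the window and of -0.01 on the rest, and in the window 191 of 388 tested intervals lay above 0. The median absolute log2 fold change was 0.19 in the window and 0.15 on the rest. A log2 fold change beyond 1 in either direction was found in 31 window intervals (7.99%) and in 31 of the rest (1.19%), with 1.77% over the whole file. Of the 31 in the window, 10 started from 3.0 to 3.6 Mb and 19 lay in the block. The window was chosen on size of change, so these shares are a description.

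**Figure D3:**
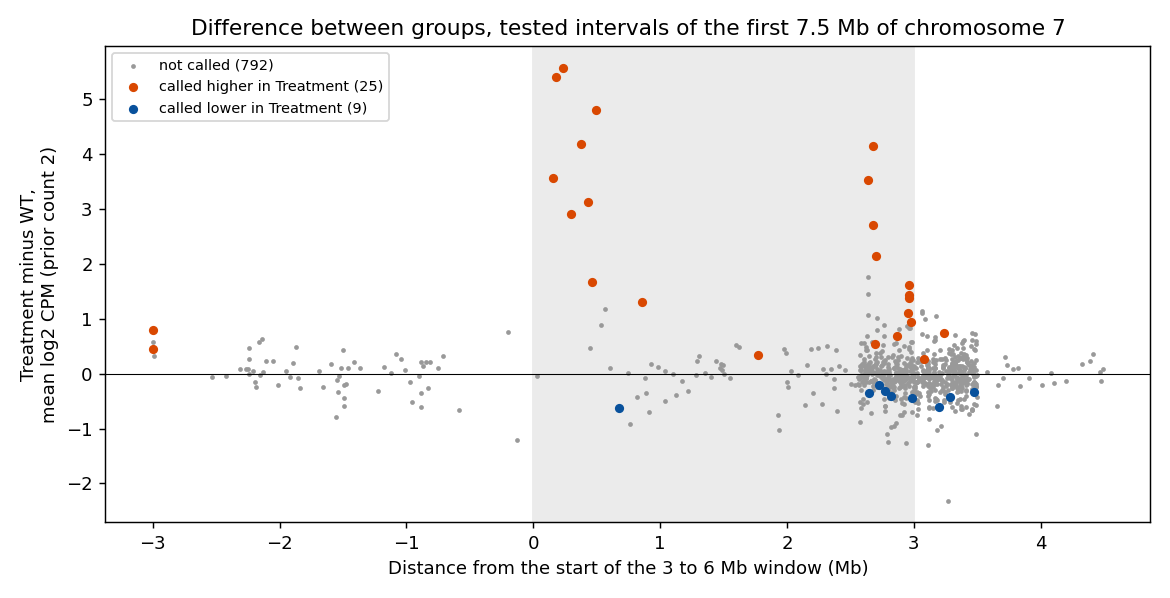
Difference between the groups (mean log2 CPM of Treatment minus that of WT, prior count 2) of each tested interval in the first 7.5 Mb of chromosome 7 against the distance in Mb from the start of the window, which is shaded. Grey points are the 792 intervals that were not called, and coloured points are the 25 called higher and the 9 called lower.

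The largest changes of the chromosome lay in a run of 11 sparse intervals from 3125746 to 3510563 on chromosome 7, a span of 385 kb of which 139 kb were covered by intervals. The run held 47 and 35 reads in the WT libraries and 488 and 458 in the Treatment libraries. In CPM (counts scaled to library size, with the factors of the test) this is 2.93 and 2.06 against 33.2 and 27.7, or 2.5 ± 0.612 against 30.4 ± 3.9 (SD, n = 2), a 12.2-fold difference. All 9 tested intervals of the run were higher in Treatment by their fitted value, and 8 of them were called. Those with at most 2 reads in either WT library passed the filter only through the Treatment libraries, which fixed their direction. The limits of the run were also drawn after these values were seen, so the counts are a description. Both Treatment libraries stood above both WT libraries, and the density of the run in them was 3.29 to 3.5 reads per kb, which is still below the density of every megabase outside 3 to 7 Mb.

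In 3 intervals of the run no read fell in either WT library. The interval from 3229828 to 3241408 held 83 and 98 reads in the Treatment libraries. The interval from 3171585 to 3188276 held 75 and 86, and that from 3158104 to 3160910 held 29 and 15. Against a floor of 3 reads over the WT group, they were at least 63.7-fold, 56.6-fold and 15.5-fold higher. For the last of them the fitted log2 value, which depends on the prior count, went from 7.52 to 6.92 when Treatment replicate 1 was left out. These bounds, like the intervals of the ratios below, cover counting error only.

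The next intervals held from 1 to 3 reads over both WT libraries. From 3483334 to 3510563 there were 1 and 2 reads in the WT libraries and 98 and 84 in the Treatment libraries, a ratio of 64.0 (95% exact interval 21.6 to 313). From 3357973 to 3393353 there were 2 and 0 reads against 40 and 57, a ratio of 51.2 (13.8 to 429). Both of these WT reads were in replicate 1, so that the fitted log2 value of 5.5 became 8.64 with that library left out and 4.55 with WT replicate 2 left out. The intervals from 3292468 to 3303091, with 1 and 0 reads against 19 and 13, and from 3427806 to 3429874, with 0 and 1 against 26 and 13, were also called higher, though not by DESeq2. Leaving out the library with the single WT read moved their fitted log2 values from 4.77 to 7.06 and from 5.06 to 7.33, and leaving out the other WT library moved them to 3.89, where the first lost its call, and to 4.25. In none of these did the groups overlap, as in 41.2% of all tested intervals of the file, and each value rests on fewer than 100 reads per library.

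The run was not uniform. The interval from 3461500 to 3470451 had reads in every library, 27 and 24 in WT and 85 and 77 in Treatment, and its log2 fold change was 1.75 (SE 0.324). Its neighbour from 3442823 to 3454482 held 16 and 5 reads in WT and 20 and 8 in Treatment, so that the groups overlapped, and it was not called. Before the run, the interval from 3032981 to 3033318, the first inside the window, held 126 and 146 reads in WT and 107 and 143 in Treatment, and the groups overlapped. After the run the difference became smaller over several intervals, none of them called. From 3532393 to 3536135 there were 8 and 8 reads in WT and 11 and 22 in Treatment, and from 3558030 to 3575540 there were 28 and 30 against 55 and 75, with fitted log2 fold changes of 1.1 and 1.23. The first of them passed the filter only through the Treatment libraries, which fixed its direction. In both intervals the Treatment libraries were still above the WT libraries, a separation found in 41.2% of all tested intervals of the file. In the next interval, from 3597413 to 3611842, the groups overlapped again at 155 and 202 reads in WT and 184 and 174 in Treatment.

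**Figure D4:**
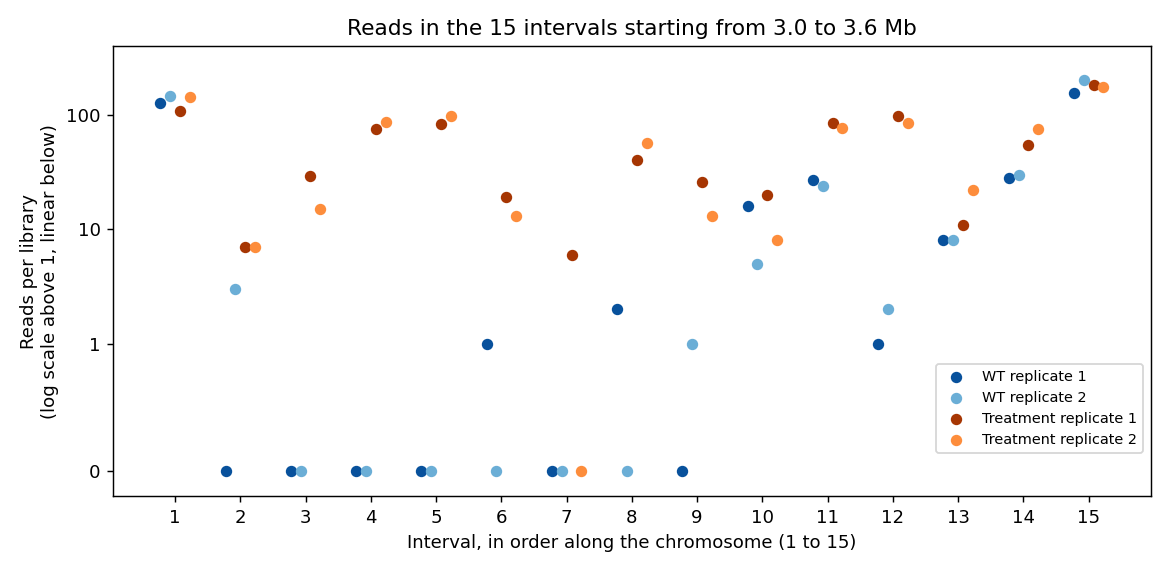
Reads in each of the 4 libraries (log scale above 1, linear below) for the 15 intervals starting from 3.0 to 3.6 Mb on chromosome 7, in order; the run described in the text is intervals 2 to 12. The called intervals of the run hold 13 to 98 reads in the Treatment libraries, and at most 2 in either WT library in all but one of them (the 11th), while the 1st and the last interval overlap between groups.

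The first called interval after the run was lower. The interval from 3622558 to 3723144 (101 kb wide) held 830 and 808 reads in the WT libraries and 470 and 540 in the Treatment libraries, and fell by 0.62 on the log2 scale (SE 0.0959). Over the 4 intervals from 3622558 to 3850107 the CPM was 89.6 and 88.3 in WT and 62.4 and 60.6 in Treatment, 1.45-fold lower in Treatment, with 1 of the 4 called. The next calls in the sparse part were both higher. They were the interval from 3856998 to 3860501, with 21 and 22 reads against 50 and 56 (log2 fold change 1.37, SE 0.368), and that from 4624926 to 4923974, with 789 and 814 against 928 and 993 (0.34, SE 0.0833). The call of the first was lost in 9 of 13 other settings, among them upper quartile scaling, DESeq2 and any single library left out. That of the second was lost with DESeq2 and with WT replicate 2 or either Treatment replicate left out. The second is 299 kb wide at 2.95 reads per kb.

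Inside the block the largest called changes were in sparse intervals next to dense ones. At few reads only a large change can reach the threshold, and alternating density was the rule for touching intervals there. Of the 199 tested block intervals under 50 reads per kb, 7 were called, all higher. Over the whole file 1.16% of tested intervals were called. Among the 7, those starting at 5638512, 5678680, 5681994 and 5699624 had too few WT reads to pass the filter without Treatment reads. This fixed their direction, so the count is a description. The median log2 fold change of the 199 was -0.02. The interval from 5638512 to 5639016 held no read in either WT library and 22 and 19 in the Treatment libraries, at least 14.4-fold higher against the floor of 3 reads over the group. It touches an interval with 1508, 1455, 1441 and 1463 reads on one side and one with 1166, 1120, 1057 and 1262 on the other (WT libraries first). Neither neighbour was called, with log2 fold changes of 0.05 and 0.10.

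The stretch from 5676779 to 5684777 had the same form. Its interval from 5681994 to 5682551 held 2 and 0 reads in WT and 40 and 54 in Treatment, a ratio of 49.6 (13.4 to 416). Its fitted log2 value of 5.46 became 8.59 with WT replicate 1 left out, which held both WT reads, and 4.51 with WT replicate 2 left out. The interval from 5678680 to 5679310 held 5 and 6 in WT and 37 and 54 in Treatment (log2 fold change 3.09, SE 0.505). Both were called higher, whereas the touching interval from 5677693 to 5678679 held 1234 and 1537 reads in WT and 1080 and 1150 in Treatment and was not called. The interval from 5699624 to 5700100 held 3 and 12 in WT and 30 and 36 in Treatment (2.20, SE 0.537). Its value was 1.57 with WT replicate 1 left out and 3.45 with WT replicate 2 left out. The call was lost without WT replicate 1 (1.57), Treatment replicate 1 (2.25) or Treatment replicate 2 (2.15), and with DESeq2.

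Intervals with no more than 3 reads over both libraries of one group, and at least 15 in each library of the other, numbered 37 in the whole file, 25 of them low in WT and 12 low in Treatment. Of these, 7 lay on chromosome 7, all 7 low in WT and all inside the window, 5 between 3.0 and 3.6 Mb and 2 in the block. This is again a description, since the window was chosen on the same values.

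A cluster of 25 intervals from 5954043 to 5984735 gave 5 of the higher calls of the block and 1 lower call. Over the whole block 3.13% of tested intervals were called, against 1.16% over the file and 0.207% to 6.55% in the other dense blocks. In the cluster the summed level differed between density classes. The 12 intervals under 100 reads per kb had 31.3 and 29.5 CPM in WT and 52.0 and 55.6 in Treatment, and the 7 from 100 to 400 reads per kb had 39.5 and 42.6 against 52.2 and 57.7. The 6 intervals of 400 or more had 446 and 456 against 420 and 416. By their fitted value 20 of the 24 tested intervals of the cluster lay above 0, among them 11 of 11 in the sparsest class and 3 of 6 in the densest. The cluster was chosen after its values were seen, so these counts are a description. In the sparsest class, the interval from 5959326 to 5959569 (8 and 8 reads in WT, 17 and 19 in Treatment) passed the filter only through Treatment. Over the whole block, 93 of 199 tested intervals under 50 reads per kb lay above 0. The sum of the densest class was carried by the interval from 5969332 to 5973997, with 3956 and 4091 reads in WT and 3290 and 3666 in Treatment, which was not called.

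The 5 higher calls had log2 fold changes from 0.94 to 1.68. The interval from 5960858 to 5962026 held 25 and 23 reads in WT and 75 and 71 in Treatment, and that from 5954844 to 5958659 held 90 and 90 against 159 and 214. The lower call, from 5983908 to 5984735, held 1009 and 1149 reads in WT and 696 and 803 in Treatment and fell by 0.45 (SE 0.0832); with scaling on narrow intervals it was no longer called. The calls from 5959570 to 5959995, 5965453 to 5965717 and 5977802 to 5981368 were each lost with Treatment replicate 2 left out, the latter 2 also with WT replicate 1 and the middle one also with Treatment replicate 1 left out. DESeq2 called none of them.

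**Figure D5:**
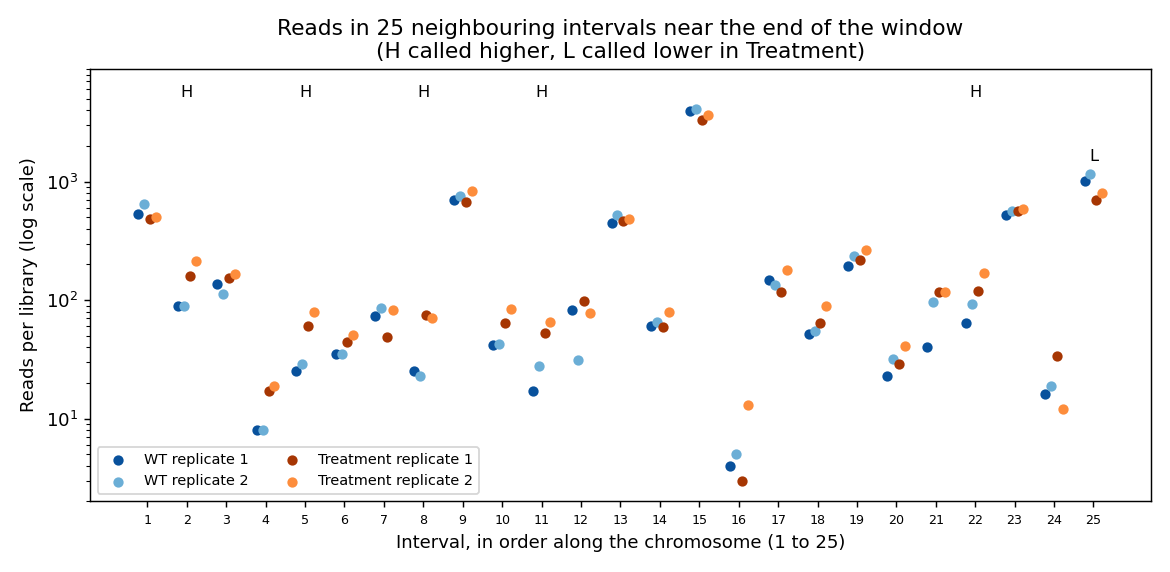
Reads in each of the 4 libraries (log axis) for the 25 intervals from 5954043 to 5984735 on chromosome 7, in order, with H over an interval called higher in Treatment and L over one called lower. The 5 intervals marked H lie higher in both Treatment libraries, and the interval marked L, the last, lies lower in both.

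Among the called intervals of the window with over 200 reads per kb, changes were smaller, with 2 higher and 5 lower, the last being the one at the end of the cluster. With more reads, smaller changes can be called. The interval from 5866356 to 5867330, at 2340 reads per kb, held 1759 and 1843 reads in WT and 2589 and 2920 in Treatment, and rose by 0.69 (SE 0.0618). The interval from 5695122 to 5696310 held 444 and 486 against 575 and 717 and rose by 0.55 (SE 0.104). Lower calls elsewhere in the block were those from 5649749 to 5651657, with 1431 and 1944 reads in WT and 1219 and 1246 in Treatment (-0.37, SE 0.0818), and from 5719688 to 5724804, with 6629 and 6535 against 5097 and 5664 (-0.21, SE 0.0504). The intervals from 5774781 to 5775710 and from 5823089 to 5825452 fell by 0.33 and 0.41. The call at 5695122 was lost with Treatment replicate 2 left out, and that at 5719688 with WT replicate 1 or either Treatment replicate left out. The other 3 lower calls (5649749, 5774781 and 5823089) were lost with WT replicate 2 or Treatment replicate 2 left out, and none of these 4 was called by DESeq2 or with scaling on narrow intervals. In each of the lower calls both Treatment libraries lay below both WT libraries, but groups were apart in 41.2% of all tested intervals of the file.

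The border at 6 Mb lies inside the block, whose density was 759 reads per kb on the window's side and 454 beyond it. The last interval starting inside it, from 5999632 to 6000676, held 65 and 69 reads in WT and 41 and 61 in Treatment, and the first outside, from 6000677 to 6002267, held 6815 and 6910 against 6467 and 7491. At the other border the last interval outside, from 2980248 to 3011514, held 4 and 0 reads against 9 and 9.

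Outside the window 13 intervals were called, and the p-values below are adjusted over all tested intervals with edgeR. The start of the chromosome gave the smallest of them. The first interval, from 1 to 529 on chromosome 7, held 4351 and 4751 reads in WT and 7129 and 7804 in Treatment and rose by 0.79 (SE 0.0499, adjusted p = 1.66e-15), at 11400 reads per kb. The third, from 2062 to 3105, held 434 and 596 against 642 and 676 (0.44, adjusted p = 0.0248), a call that was lost with WT replicate 1 (adjusted p = 0.274) or either Treatment replicate (0.187 and 0.0593) left out. Over the first 4 intervals the CPM was 323 and 347 in WT and 570 and 550 in Treatment, a 1.67-fold difference, so both groups were apart by more than their own spread.

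The part of the block outside the window held 3 lower and 2 higher calls among 352 tested intervals (1.42%), against 5 lower and 11 higher among 318 (5.03%) in the part inside it. The interval from 6193137 to 6199408 held 3183 and 3252 reads in WT and 1880 and 2117 in Treatment, and fell by 0.61 (SE 0.0600, adjusted p = 9.69e-10). The interval from 6231437 to 6237362 held 531 and 499 against 785 and 847, and rose by 0.74 (SE 0.0962, adjusted p = 1.04e-06). In both the groups were well apart, one lower and one higher in Treatment. The intervals from 6283532 to 6287081 (-0.43, adjusted p = 0.00193) and from 6475960 to 6476619 (-0.33, adjusted p = 0.0468) were also lower, and that from 6079165 to 6080427 was higher (0.26, adjusted p = 0.0306). The first 2 were lost with WT replicate 2 (-0.25 and -0.19) or Treatment replicate 2 (-0.37 and -0.18) left out, and the last with WT replicate 2 or either Treatment replicate left out; DESeq2 called none of the 3. The test of whether the parts of the block differ in direction was not made, because the border was set with these values known.

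The 67.65 Mb after the block held 3 lower and 3 higher calls among 2190 tested intervals (0.274%), below the 1.16% of the file. The lower calls were 3 narrow intervals. The interval from 31456459 to 31456800 held 66 and 69 reads in WT and 25 and 13 in Treatment (-1.73, SE 0.371, adjusted p = 0.00567). It was -2.37 with Treatment replicate 1 left out, and -1.26 and not called with Treatment replicate 2 left out (adjusted p = 0.258); DESeq2 gave an adjusted p of 0.0851. The interval from 33023680 to 33023926 held 73 and 57 against 23 and 22 (-1.45, adjusted p = 0.0225), and that from 65092847 to 65093301 held 151 and 144 against 64 and 86 (-0.90, adjusted p = 0.029). Their groups did not overlap, as in 41.2% of all tested intervals of the file. The call at 33023680 was, however, lost with WT replicate 1 or either Treatment replicate left out, and that at 65092847 with any single library left out. DESeq2 called neither (adjusted p = 0.231 and 0.215).

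The higher calls after the block were of different width. The interval from 24236103 to 24236523 held 76 and 119 reads in WT and 164 and 201 in Treatment (0.98, SE 0.209, adjusted p = 0.00541), and its call was lost with WT replicate 1 (adjusted p = 0.0793) or Treatment replicate 2 (0.0747) left out. The interval from 27379783 to 27454645 is 74.9 kb wide and held 2747 and 2727 against 2869 and 3184 (0.22, adjusted p = 0.0444). Its call was lost in 7 of 14 other settings, among them the replicate block (adjusted p = 0.0541), DESeq2 (0.154) and leaving out WT replicate 2 or either Treatment replicate. The interval from 71385513 to 71389375 held 5 and 8 against 18 and 40 (2.20, adjusted p = 0.0343), on few reads. It passed the filter only through the Treatment libraries, which fixed its direction. Its call was lost with either WT replicate or Treatment replicate 2 left out, and with DESeq2 (adjusted p = 0.373) or limma voom (0.0822).

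Narrow intervals (at most 1 kb), called or not, differed in their middle value between the block and the rest of the chromosome. Their median log2 fold change was -0.03 in the block and -0.14 after it, and -0.12 over the whole file. Outside the block the shift followed the libraries as well as the groups. Relative to the mean of the 4 libraries, the median narrow interval after the block lay at 0.02 and 0.12 in the WT libraries and at -0.01 and -0.12 in the Treatment libraries (log2 scale), so the replicates of a group differed by about as much as the groups. In the block the same medians were 0.00, 0.03, 0.00 and 0.01. Medians were also taken among tested intervals of every width with 200 to 500 reads per kb. In the same order of libraries they were 0.01, -0.02, 0.01 and 0.03 for 153 intervals in the block. For 281 intervals outside it they were 0.01, 0.16, 0.00 and -0.16. Among the other 11 dense blocks narrow intervals had median log2 fold changes that ranged from -0.23 to 0.09, and in 1 of the 11 it was below -0.1. The part of this difference between libraries in the calls was not tested.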

How the data were processed

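Bulk ATAC-seq libraries of zebrafish nonCMs at 7 days were analysed, 2 titled WT and 2 titled Treatment. According to the study's methods, reads were trimmed by the authors, aligned to GRCz11 (danRer11 in the submitters' notes) with Bowtie2, cleared of mitochondrial reads and kept where uniquely mapped, and peaks were called with Genrich on each condition, over its replicates together. The intervals were thus defined on the same libraries that are compared. The joining of peak sets, any removal of duplicates and any Tn5 shift are not given in the sources used here. What the authors deposited are raw read counts, not normalized, in 1 column per library; 0 columns were left unused. Totals cover reads in intervals only, which is less than the depth, and reads are not independent molecules. Starts were raised by 1 to count from 1.

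All intervals of the file were filtered with filterByExpr (minimum count 10), scaled with TMM and tested with the quasi-likelihood test of edgeR 4.0.16 (R 4.3.3), with no term but group; the deposited counts of chromosome 7 were then read out. The common biological coefficient of variation was 9.56%. Between replicates, counts on chromosome 7 had 3.15 (WT) and 2.72 (Treatment) times the variance of sampling noise alone (chi-square per degree of freedom). Replicates were treated as separate libraries, though this does not show that they came from separate animals. With 2 against 2 libraries an exact permutation test cannot go below 0.333, and none was run. The SE is the log2 fold change divided by the square root of F. Centred library medians used log2 CPM with a prior count of 2.

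Members, window and lists were chosen with earlier results of these data known, and the zones, dense blocks and clusters after the values were seen. Named intervals followed a rule: in the window the 6 largest called changes in each direction; outside it the same among intervals with separate groups and a mean CPM of at least the median, 8.11; the 4 largest among narrow calls in each direction; the 3 densest; and those with at most 3 reads in a group, kept where each library of the other group had at least 15. The other intervals named were chosen after their values were seen. Planned checks of AP-1 letters and of cell type marker loci were not run, since they need a genome or annotation of GRCz11. Alternatives were DESeq2 1.42.0, limma 3.58.1 with voom, other scaling, filters, thresholds and windows, a replicate block and leaving out each library. The fit was tested on simulated data.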

Additional observations from a re-analysis of the deposited data

How the results depend on the processing

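Results that kept their direction and stayed within 1.5 times of the count reported are not repeated. Upper quartile scaling gave 19 lower calls on chromosome 7, 10 of them outside the window, and medians of -0.0218 (window) and -0.0294 (rest). Scaling on narrow intervals (TMM, at most 1 kb) gave 4 lower calls (1 in the window, 3 on the rest), 14 higher on the rest, and medians of 0.111 and 0.1042; factors from intervals of over 20 kb gave 21 lower (12 on the rest) and medians of -0.0334 and -0.0413. Keeping only intervals with a mean of 50 counts or more left 12 higher calls, 6 in the window, whose median was -0.0166. The DESeq2 Wald test gave 3 lower calls (2 in the window, 1 on the rest) and 16 higher (13 and 3), and 19 of the 40 intervals were called by both tests. At an adjusted p under 0.1 there were 23 lower calls, with 14 lower and 12 higher on the rest. Moving the window to 2 to 7 Mb gave a median of -0.0236, and moving it to 3.5 to 5.5 Mb left 1 lower and 2 higher calls. Intervals of at most 1 kb on the rest had a median of -0.1276, and those of over 5 kb had medians of 0.0565 (window) and 0.0314 (rest).

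Leaving out each library in turn gave 4 to 34 lower and 17 to 31 higher calls on chromosome 7, 2 to 13 lower and 14 to 21 higher in the window, and 2 to 21 lower and 3 to 10 higher on the rest, with medians of -0.0069 to 0.0271 in the window and -0.0264 to 0.00 on the rest. With the replicate number as a block there were 13 lower and 31 higher calls, and 39 of the 40 intervals remained; the one lost was that from 27379783 to 27454645 (adjusted p = 0.0541). Deviations of same-numbered libraries correlated at -0.0632, so no strong shared deviation was seen. This value cannot tell whether same-numbered libraries were prepared together. For the 40 called intervals 540 values were computed under these settings; 92 no longer passed the threshold, 53 of them with a library left out, and 0 changed sign. The 2 dense intervals that were named but not called, at 5734797 and 5862421, went from -0.04 to 0.07 and from -0.10 to 0.01 with scaling on narrow intervals. With 2 libraries a group the spread between libraries limits each value, and intervals at a few reads are limited by counting. The cause of these dependences was not tested.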
